A study of Mus musculus with 6 samples.

Results

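Integrins are the receptors by which cells hold on to the extracellular matrix and, in leukocytes, to other cells. The members examined here are the integrin subunits, taken by gene symbol, together with a named set of proteins of the focal adhesion, the plaque that joins integrins to actin. Of the 18193 genes with a probe set of their own, 35 are members, namely 16 integrin α subunits, 8 β subunits and 11 focal adhesion proteins. They are measured by 84 probe sets, and each gene is represented by its brightest one over the 6 arrays. The focal adhesion kinase gene Ptk2, also named in the rule, had no probe set with that symbol alone and was not analysed here.

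The cells were 344SQ, mouse lung adenocarcinoma cells cultured as a mass population from tumour tissue at a subcutaneous site of 1 animal. Its genotype was p53R172H∆g/+ K-rasLA1/+, so both groups carry the mutant p53 and K-ras alleles. One group was transduced with a lentivirus carrying the miR-200b-200a-429 cluster and the other with the control vector. In both, GFP-positive pools, not single clones, were kept in puromycin with 10% serum, and 3 cultures of each, called A, B and C, gave 1 array each. The labels give neither the animal's age nor whether cultures of a group came from separate transductions, so p-values measure only the spread between these cultures, and a lasting difference between the pools would enter every comparison. The comparison asks how adhesion receptors and their plaque differ when this microRNA family, a brake on epithelial-mesenchymal transition, is forced on in a line with high metastatic potential.

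An integrin is a pair of one α and one β chain, and the pair decides the ligand. Itga1, Itga2, Itga10 with Itgb1 make collagen receptors, Itga3, Itga6 and Itga7 with Itgb1 make laminin receptors, and Itga6 with Itgb4 makes the laminin receptor of hemidesmosomes. Itgav with Itgb3 or Itgb5 binds vitronectin, and with Itgb6 or Itgb8 it activates latent TGF-beta. Inside the cell, talin and kindlin bind the β tail and switch the receptor on, Ilk and Parva form a scaffold on it, and vinculin, α-actinin, filamin, paxillin and zyxin link or signal to actin.

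The microRNAs forced on in these cells set the comparison, so their mature strands are shown here with the seed, bases 2 to 8, in capitals. The sequences are from RefSeq (GRCm38.p6), where they lie on the minus strand at chr4:156055685-156055706 (miR-200b), chr4:156053916-156053937 (miR-429) and chr4:156054911-156054932 (miR-200a). miR-200b and miR-429 share 1 seed and miR-200a has another, so the cluster carries both seeds of the family.
mmu-miR-200b-3p: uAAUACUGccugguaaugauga
mmu-miR-429-3p: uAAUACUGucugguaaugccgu
mmu-miR-200a-3p: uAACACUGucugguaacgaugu

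Values are log2 signals after quantile normalization, a change is the miR-200 mean less the control mean, given with its standard error (SE) from a limma fit over 45037 probe sets, and a call means an adjusted p under 0.05. A background gauge of 5.28, the highest value of a bacterial control probe set on any array, marks signals too dim to trust; a fold against a dimmer mean is given as "at least". One array in each group, control B and miR-200 A, differed from its fellows, and both did so in like manner (r = 0.71 between their deviations from the group means, across probe sets that share these arrays, the dimmest 40% left out). The arrays do not measure the microRNAs themselves. Epithelial keratins were bright in both groups, Krt8 at 13.52 and 13.45 and Krt18 at 13.93 and 13.91. Krt19 (13.38 and 12.99) was lower and Epcam (9.28 and 9.70) higher in all 3 miR-200 cultures, without a call. Cdh1 was bright at 13.2 and 13.3 with overlapping groups. The lung factor gene Nkx2-1 lay above the gauge at 7.07 and 6.88, whereas the lung surfactant gene Sftpc lay under it at 4.23 and 4.72. Each array reads a whole culture, so less RNA per cell and fewer cells expressing a gene cannot be told apart.

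The clearest change was in the collagen receptor chain Itga1, which fell 3.34-fold, a change of -1.74 ± 0.17. Itgb1, a chain of both collagen and laminin receptors, and the laminin receptor chain Itga3 had higher values in all 3 miR-200 cultures. The vitronectin receptor chain Itgb3 had lower ones, but these 3 genes missed the threshold. The laminin receptor chains Itga6 (-0.25) and Itga7 (-1.15, with overlapping groups) were lower in the mean, also without a call. Of the 35 members, 0 rose and 1 fell, or 2.86%, against 0.945% of all genes (0.275% higher and 0.671% lower). A share that rests on 1 gene says little about the group. At an unadjusted p under 0.05 in limma, 4 members were higher and 4 lower, against 14.8% of all genes in either direction. The 3 miR-200 values lay wholly above the control values for 5 members and wholly below for 6, where 11.4% and 12.1% of all genes did so and 23.5% in either direction. The median change of the members was 0.0025, and that of all genes 0.0014, with 18 members above 0 and 17 below.

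**Figure D1:**
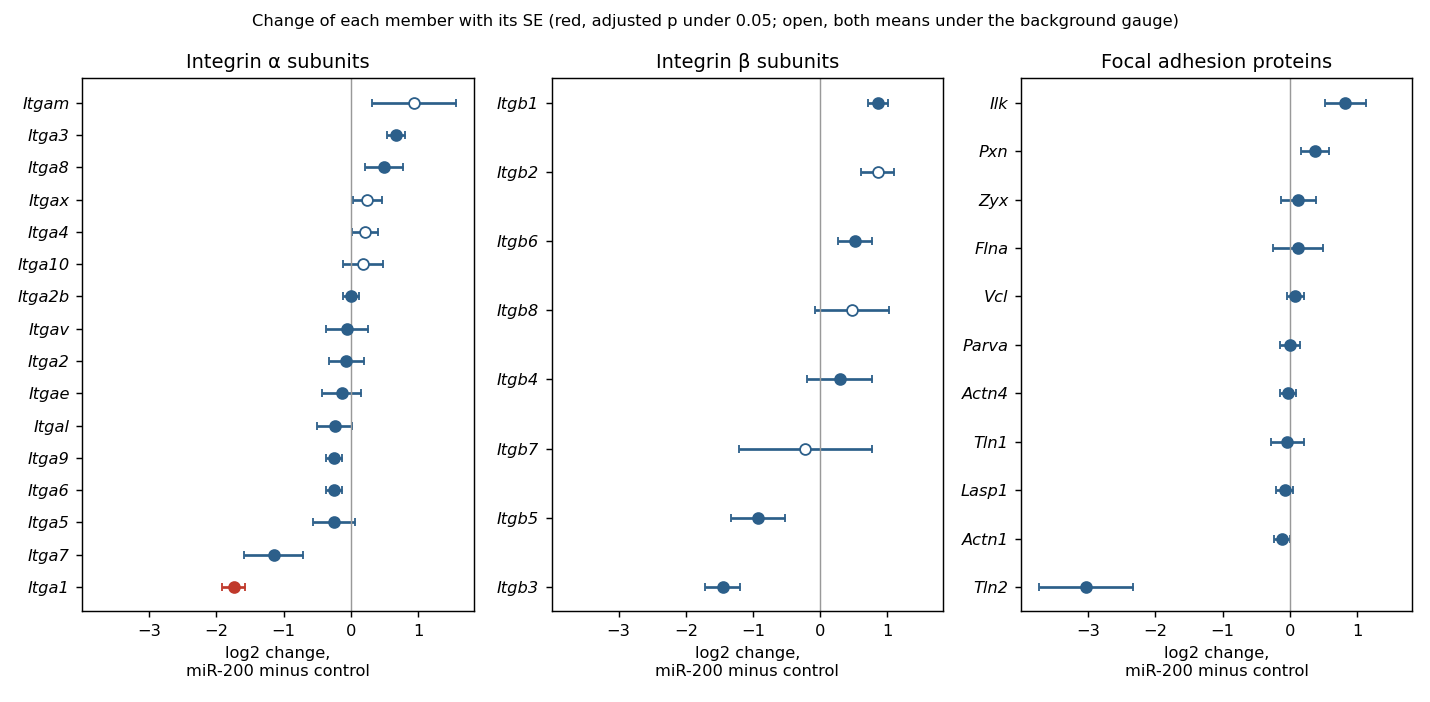
Log2 change (miR-200 minus control, horizontal axis) of the 16 α subunits, 8 β subunits and 11 focal adhesion proteins, each point the brightest probe set with its SE from the limma fit on 3 cultures a group. Itga1 alone is red (called); Tln2 lies farthest to the left at -3.03, and most focal adhesion proteins lie near 0.

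Of the collagen receptor chains, Itga1 read 9.47, 9.24 and 9.46 in control A, B and C and 7.92, 7.57 and 7.46 in miR-200 A, B and C. Every miR-200 culture was lower than every control culture, with a gap far wider than the spread within either group. The change was -1.74 ± 0.17 (log2 ± SE, n = 3 a group; limma, adjusted p = 0.0250). Its dimmer probe set moved by about the same, 6.80 in control and 5.07 in miR-200 cultures, which is at least 2.87-fold, without a call (-1.73 ± 0.31, adjusted p = 0.0990). Itga2, the α chain of the other epithelial collagen receptor, averaged 7.60 ± 0.22 and 7.53 ± 0.44 (SD, n = 3) with overlapping groups. Itga10 lay under the gauge in both groups (4.06 and 4.24).

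The size of the Itga1 change ranged from -1.95 to -1.65 over 14 alternatives. Its call was lost without control A, B or C (adjusted p = 0.134, 0.0720 and 0.124), without miR-200 B or C (0.148 and 0.123) and without control B and miR-200 A together (0.0556). Without miR-200 A alone it held (0.0312). Where it was lost, fewer of all genes were called than the 0.945% with all arrays. The shares were 0.0879%, 0.473% and 0.154% without control A, B or C and 0.137% and 0.17% without miR-200 B or C. They were 0.319% without both arrays that stand apart and 1.02% without miR-200 A.

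Itgb1, the β chain shared by the collagen, laminin and fibronectin receptors, had higher values in the miR-200 cultures. It read 10.63, 10.85 and 10.73 in the control cultures and 11.68, 11.41 and 11.71 in the miR-200 cultures. All 3 miR-200 values lay above the control values, 1.82-fold in the mean, a change of 0.86 ± 0.15 that missed the threshold (adjusted p = 0.0896). The other bright probe sets of the gene gave nearly the same value, 0.88 ± 0.15 and 0.87 ± 0.14, with adjusted p of 0.0868 and 0.0844. Its 3 dim probe sets, each with at least one mean under the gauge, read 0.28, -0.17 and -0.14, so the mean over all 6 was only 0.43 (adjusted p = 0.228).

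Itga3, which pairs with Itgb1 as a laminin receptor of epithelia, was higher too. Its control values were 10.73, 10.75 and 10.68 and its miR-200 values 11.43, 11.22 and 11.52. The groups did not overlap and the control cultures were nearly identical; the change was 0.67 ± 0.13 (adjusted p = 0.122). A second probe set differed by 0.49 ± 0.14 (adjusted p = 0.231) and the third, the dimmest, by -0.10 ± 0.13 (adjusted p = 0.780), and the mean of the 3 was 0.35.

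Itga6, the α chain of the laminin receptors with Itgb1 and Itgb4, was slightly lower. It read 12.77, 12.71 and 12.78 in the control cultures and 12.43, 12.50 and 12.59 in the miR-200 cultures. The groups did not overlap, but the difference of -0.25 ± 0.12 was small and missed the threshold (adjusted p = 0.422), and the second probe set gave -0.26 ± 0.12. Its hemidesmosome partner Itgb4 read 7.56, 5.91 and 7.22 against 6.72, 7.36 and 7.48. Its low cultures were control B and miR-200 A, and the groups overlapped (0.29 ± 0.48, adjusted p = 0.836). Itga7, a laminin receptor chain best known from muscle, averaged 7.98 ± 0.65 and 6.83 ± 0.58, a change of -1.15 ± 0.44 (adjusted p = 0.339), with its lowest control culture just under its highest miR-200 culture.

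Among the vitronectin receptors, Itgb3 read 7.90, 7.13 and 7.40 in the control cultures and 6.29, 6.02 and 5.76 in the miR-200 cultures. All miR-200 values were lower, 2.73-fold in the mean (-1.45 ± 0.26, adjusted p = 0.0967). Its second probe set was listed at 0 on all 6 arrays and carries no information, which brings the mean of both to -0.73 (adjusted p = 0.122). Itgb5 was lower by 0.93 ± 0.40 in the mean without a call (9.94 ± 0.40 and 9.01 ± 0.69, SD, n = 3, adjusted p = 0.387). Its miR-200 A value of 9.80 lay among the control values of 9.70, 10.39 and 9.72, while miR-200 B and C were at 8.67 and 8.56. All 4 of its probe sets were lower, by 0.68 to 1.31 on the log2 scale. Itgav, the α chain that Itgb3, Itgb5, Itgb6 and Itgb8 share, read 12.23, 12.94 and 12.13 against 12.82, 12.10 and 12.21. The high values came from control B and miR-200 A, and the group means were nearly equal (-0.05 ± 0.31, adjusted p = 0.962).

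Itgb6, the epithelial chain that with Itgav activates TGF-beta, was dim. It read 4.97, 5.61 and 5.75 in the control cultures and 6.21, 5.76 and 5.91 in the miR-200 cultures. The groups were just apart and all values lay near the gauge, with a difference of 0.52 ± 0.26 (adjusted p = 0.437). In the second probe set of Itgb6 the groups overlapped (0.61 ± 0.32, adjusted p = 0.468), and its control mean of 5.14 lay under the gauge. Itgb8 lay under the gauge in both groups (4.20 ± 0.78 and 4.67 ± 0.78). The fibronectin receptor chain Itga5 averaged 5.87 ± 0.11 and 5.62 ± 0.60, with its other 3 probe sets under the gauge, so these arrays show it at most weakly in either group. Itga8, which binds nephronectin, averaged 7.09 ± 0.40 and 7.59 ± 0.34 with overlapping groups (adjusted p = 0.496).

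**Figure D2:**
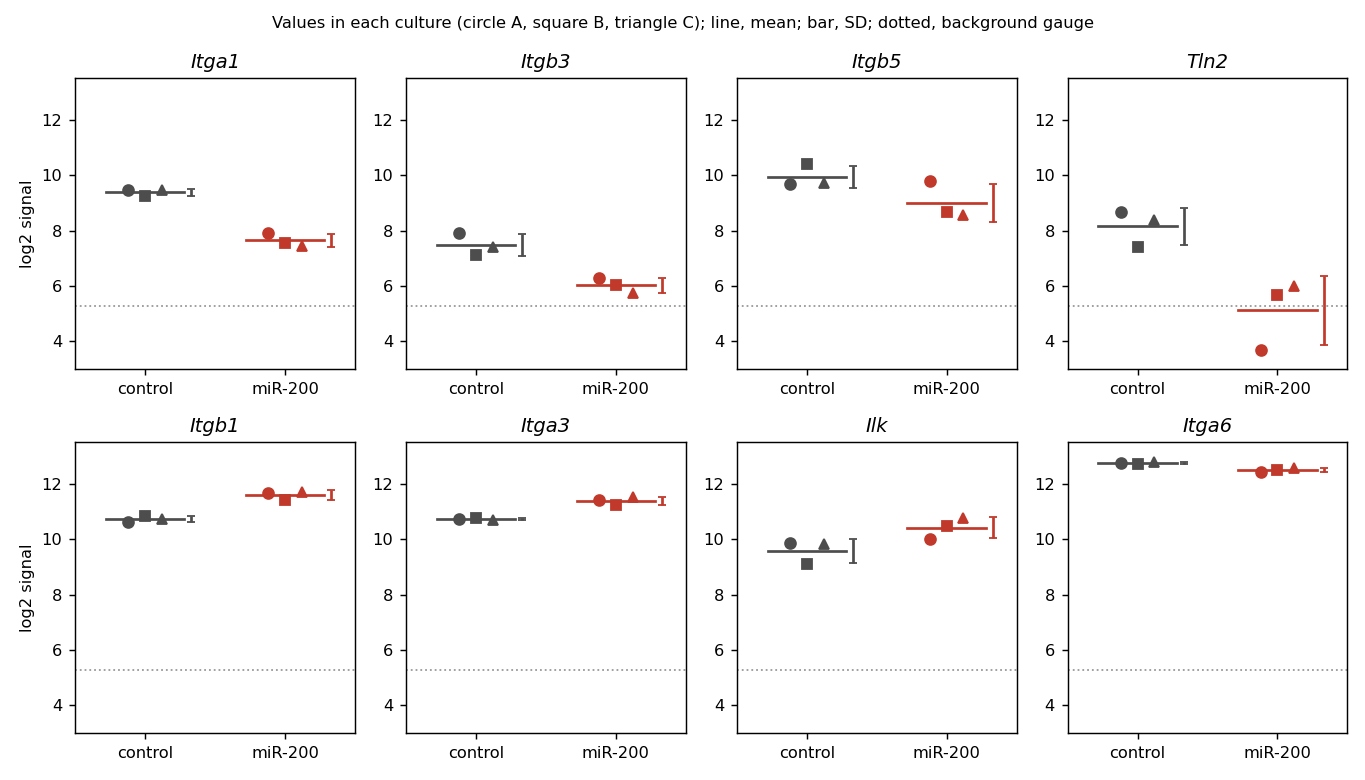
Log2 signal (vertical axis) of 8 members in each culture, control grey and miR-200 red, with circles, squares and triangles for cultures A, B and C, the group mean as a line and the SD (n = 3) as a bar beside it; the dotted line is the background gauge of 5.28. Itga1, Itgb3 and Tln2 separate downward, Itgb1, Itga3 and Ilk upward, Itga6 by a small step, and in Itgb5 miR-200 A lies with the control cultures.

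The probe sets of Itga9, a receptor chain for tenascin, disagreed. The brightest read 6.51, 6.60 and 6.57 in the control cultures and 6.27, 6.28 and 6.38 in the miR-200 cultures, lower in all 3 by a small amount (-0.25 ± 0.12, adjusted p = 0.420). The second averaged 6.18 in control and 4.02 in miR-200 cultures, a gap of at least 1.86-fold (-2.16 ± 0.32, adjusted p = 0.0664). The dimmest lay under the gauge in control and miR-200 cultures alike and was higher in the latter by 1.18 ± 0.22 (adjusted p = 0.106). The probe sets with a mean above the gauge were thus both lower, by amounts that differ widely and without a call. The members have 84 probe sets, and 22 members have more than 1. The bright one of Itga1 was the single probe set past the threshold, where 335 of all 45037 probe sets passed. Both means lay under the gauge for 26 of the 84.

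**Figure D3:**
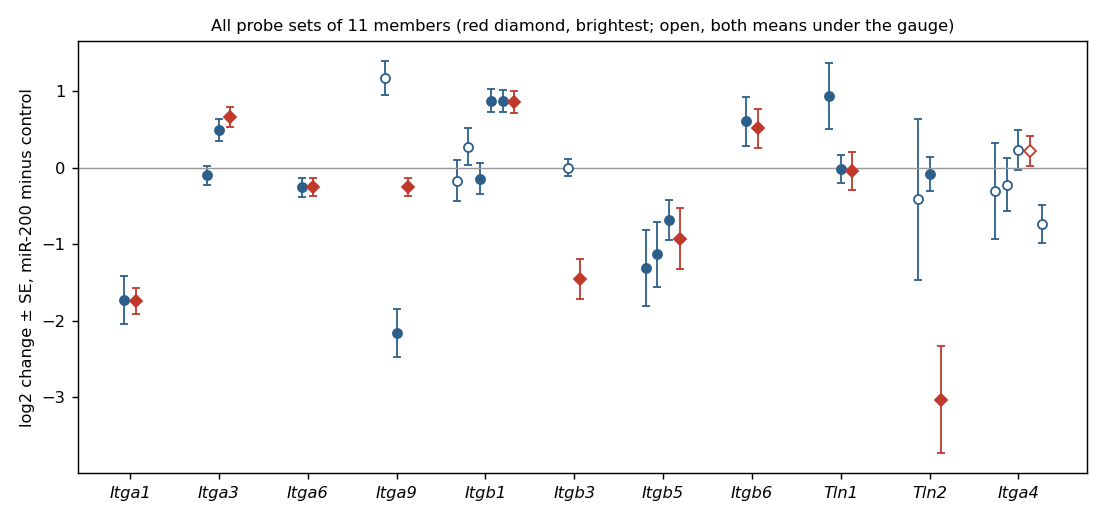
Log2 change ± SE (vertical axis) of all probe sets of 11 members, ordered from dim to bright by control level within a gene; diamonds mark the brightest over the 6 arrays and open symbols those with both means under the gauge. The probe sets of Itga1, Itga6 and Itgb5 and the 3 bright ones of Itgb1 give like values, whereas those of Itga9 and Tln2 do not.

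The leukocyte integrin chains lay under or just above the gauge, and the platelet chain Itga2b well above it. Itgb2, the β chain of the leukocyte integrins, read 4.16, 4.14 and 4.55 in the control cultures and 4.70, 5.39 and 5.33 in the miR-200 cultures. The groups did not overlap (0.85 ± 0.24, adjusted p = 0.228), but both means lay under the gauge, so no fold is given. Its partners Itgam and Itgax lay under the gauge as well, and its partner Itgal just above it (5.72 and 5.47) with overlapping groups. Itga4 and Itgb7, which pair on lymphocytes, were under the gauge, and Itgae, the other partner of Itgb7, just above it (5.82 and 5.68). Of the 10 leukocyte markers measured, 7 had both means above the gauge. Csf1r was bright (9.47 and 9.92) and higher in all 3 miR-200 cultures without a call (0.45 ± 0.14, adjusted p = 0.264), as was Cd79a (6.51 and 6.79, adjusted p = 0.374). Adgre1 averaged 8.80 and 8.84, Laptm5 7.42 and 7.25 and Cd68 7.38 and 6.89, with overlapping groups. Cd68 read 6.81, 8.87 and 6.46 in the control cultures and 8.98, 5.73 and 5.97 in the miR-200 cultures. It was thus higher in control B and miR-200 A than in the other cultures of their group, by 2.23 and 3.13. The pan-leukocyte marker Ptprc was close to the gauge (5.60 and 5.50) and Lyz2 and Tyrobp were under it. The median of the list ran from 5.91 to 6.22 in the control and 5.76 to 6.31 in the miR-200 cultures. The part of other cells in these values was not tested. The platelet integrin chain Itga2b had nearly the same value everywhere (8.29 ± 0.09 and 8.30 ± 0.07), with the platelet markers Gp9 under the gauge and Pf4 at 6.19 and 6.22; the third, Ppbp, a chemokine gene, rose from 6.66 to 9.72 (adjusted p = 0.0281).

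Among the focal adhesion proteins, the large difference was in Tln2, the second talin. It read 8.68, 7.40 and 8.37 in the control cultures and 3.70, 5.66 and 6.0 in the miR-200 cultures. All miR-200 values lay below all control values, at least 7.32-fold in the mean, but the cultures varied widely and the change of -3.03 ± 0.70 did not pass (adjusted p = 0.157). Each group's lowest culture was again control B or miR-200 A, and without both the difference was -2.70 (adjusted p = 0.0707). The other probe sets of Tln2 did not show it, with -0.08 ± 0.22 for one near the gauge (5.87 and 5.79) and -0.41 ± 1.05 for one under it.

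Tln1, the talin of most cells, read 8.66, 8.55 and 8.45 against 8.03, 8.60 and 8.91, so the groups overlapped (-0.04 ± 0.25, adjusted p = 0.969). Its dimmer probe sets overlapped too. One differed by -0.02 ± 0.18, and the dimmest, with its control mean of 4.72 under the gauge, by 0.94 ± 0.44 (adjusted p = 0.411). The difference between the change of Tln2 and that of Tln1 was not tested. Ilk, the pseudokinase that scaffolds the β tail, read 9.85, 9.09 and 9.81 in the control cultures and 10.00, 10.47 and 10.76 in the miR-200 cultures. It was higher in all 3, 1.77-fold in the mean, without passing (0.83 ± 0.30, adjusted p = 0.317), and control B and miR-200 A were again low. Its binding partner Parva averaged 9.49 in both groups (0.0030 ± 0.15, adjusted p = 0.999). Its second probe set, nearly as bright (9.38 and 9.43), was far less precise (0.05 ± 0.53) and shifted by -1.01 in control B and -1.5 in miR-200 A from the other cultures of the group.

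None of the actin-linking proteins passed, and the differences of most were small. Vinculin, Vcl, which reinforces loaded adhesions, read 12.21, 12.16 and 12.13 against 12.36, 12.09 and 12.29 (0.08 ± 0.13, adjusted p = 0.823). The α-actinin Actn1 read 12.93, 13.07 and 12.94 against 12.91, 12.85 and 12.84. The groups did not overlap, but their means differed by less than the SE (-0.11 ± 0.12, adjusted p = 0.725). In the dimmer probe sets of Actn1 the groups overlapped, with -0.13 ± 0.18 and 0.20 ± 0.17. Actn4 differed by -0.02 ± 0.12. Zyxin, Zyx, a LIM protein that senses strain on actin, read 7.59, 8.23 and 7.48 against 7.80, 7.70 and 8.19, with overlapping groups (0.13 ± 0.26, adjusted p = 0.871). Filamin A, Flna, the actin crosslinker, was lowest in control B and miR-200 A and averaged 10.91 ± 0.42 and 11.02 ± 0.59. The adaptor paxillin, Pxn, averaged 11.39 ± 0.11 and 11.77 ± 0.35 (0.37 ± 0.21, adjusted p = 0.491), and the LIM and SH3 protein Lasp1 13.47 ± 0.07 and 13.39 ± 0.08. For the brightest probe sets of Vcl, Actn1, Actn4 and Lasp1 the SE was 0.12 to 0.13, so a change as large as that of Itga1 would lie far outside the error, while small changes cannot be told from 0.

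More members passed in some other settings. Without the dimmest 40% of probe sets, and also with a variance trend and robust estimation, 4 members passed, Itga1 and Itgb3 lower and Itgb1 and Itga3 higher. Adjusted p was 0.0303 and 0.0215 for Itgb1, 0.0325 and 0.0286 for Itgb3, and 0.0477 and 0.0415 for Itga3, against 3.72% and 2.72% of genes called in these settings. In no setting did Ilk, Itgb5, Itga6 or Itgb6 pass.

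Several members moved with the arrays that stand apart. In control B and miR-200 A alike, Itgav, Itga7, Itgb5 and Itgb8 were higher by over 0.5 on the log2 scale than in the other cultures of their group, and Itgb4, Tln2, Flna and Ilk lower. These are 8 of 35 members, or 22.9%, against 14.9% of all genes. For Itgb4 the shift, -1.48 in control B and -0.70 in miR-200 A, was larger than the difference between the groups. The same held for Itgav (0.76 and 0.67), Flna (-0.72 and -1.02) and Itgb8 (0.79 and 0.62). With a 2-level term for these arrays Itga7 and Tln2 also passed (adjusted p = 0.0370 and 0.0281), where 2.64% of all genes were called, though that term was read from the same values it is tested on, which makes its p-values too small. Itga1, Itgb1, Itga3 and Itga6 were not among them, and without both arrays their differences were -1.95, 0.88, 0.66 and -0.23.

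**Figure D4:**
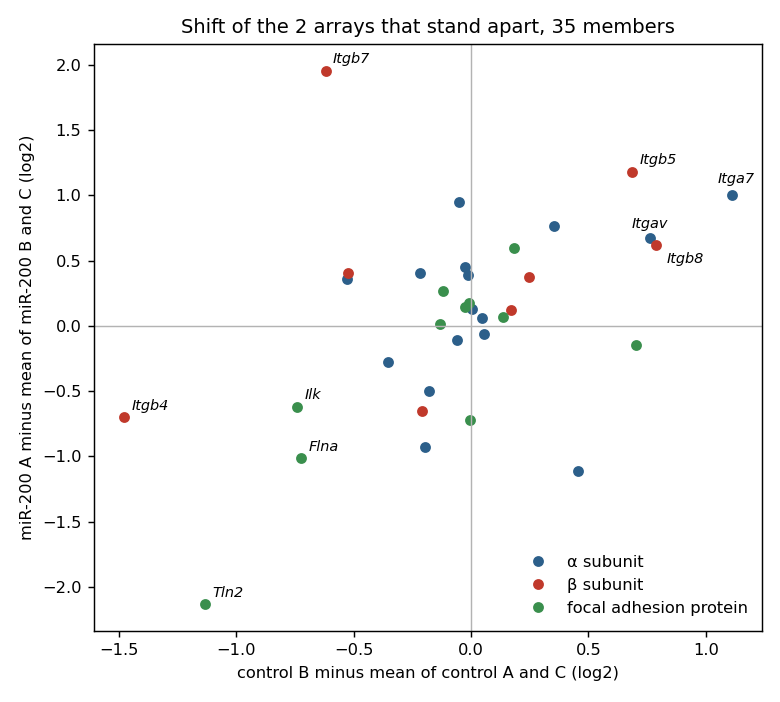
Shift of control B from the mean of control A and C (horizontal axis, log2) against that of miR-200 A from the mean of miR-200 B and C (vertical axis, log2) for the 35 members, coloured by class; members past 0.5 on both axes are named. Itgb5, Itga7, Itgav and Itgb8 lie high and Tln2, Flna, Ilk and Itgb4 low on both arrays, while Itgb7, under the gauge, moves in opposite directions.

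Other genes of the adhesion machinery were counted from 3 lists, 88 genes in all. Of 47 further focal adhesion and integrin-linked genes 0 rose and 1 fell, and of 12 membrane partners and 29 ligands 0 passed, against 0.945% of all genes. At an unadjusted p under 0.05 in limma the counts were 4 higher and 8 lower, 0 and 0, and 2 and 4, against 14.8% of all genes in either direction. Their medians were -0.04, -0.05 and 0.02. The gene that fell was Fermt2, which encodes kindlin-2, the integrin activator that works beside talin. It read 9.46, 9.51 and 9.13 in the control cultures and 7.51, 7.20 and 7.81 in the miR-200 cultures, 3.64-fold lower (-1.86 ± 0.21, adjusted p = 0.0384). Its second probe set differed by -1.40 ± 0.41 (adjusted p = 0.234) and the dimmest by -0.05, and the mean of the 3 did not pass (-1.11, adjusted p = 0.0655). The Fermt2 call was lost without any single array, with adjusted p from 0.0815 without miR-200 A to 0.168 without control A, and without control B and miR-200 A together (0.127). The share of all genes called in these fits ran from 0.0879% without control A to 1.02% without miR-200 A, and was 0.319% without both.

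The groups did not overlap for 4 ligands higher and 5 lower of 29, or 31%, against 23.5% of all genes. Of the 47 further focal adhesion and integrin-linked genes it was 7 higher and 9 lower, or 34%. Among the ligands whose groups did not overlap, the tenascin gene Tnc differed by 1.70 ± 0.62 (adjusted p = 0.312), at 5.92, 6.07 and 4.99 against 8.62, 6.63 and 6.84. Vcam1, a ligand of Itga4, was lower by 1.62 ± 0.56 (adjusted p = 0.292), at 12.11, 13.06 and 12.14 against 11.93, 10.44 and 10.08. The laminin chain gene Lamb2 was lower by 0.79 ± 0.29 (adjusted p = 0.312). All 3 were higher in control B and miR-200 A than in the other cultures of the group, by 0.61 and 1.88 for Tnc, 0.94 and 1.68 for Vcam1 and 0.63 and 0.53 for Lamb2. Without both arrays the differences were 1.28, -1.87 and -0.76. Of the 12 membrane partners, Bsg, which encodes basigin, was the single gene whose groups did not overlap (0.35 ± 0.23, adjusted p = 0.561). That is 8.33%, against 23.5% of all genes. Bsg was higher in miR-200 A than in the other cultures of the group by 0.71, and without both arrays its difference was 0.13.

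Promoters are shown for the chain that fell, Itga1, for its partner Itgb1, which was higher, and for Itgb5, whose window holds a CACCTG box, the letters to which Zeb and Snail factors are known to bind. Each is the 250 bases before the RefSeq start (GRCm38.p6) in the direction of the gene, with CACCTG or its reverse complement CAGGTG in capitals. The Itga1 stretch is chr13:115101965-115102214 (minus strand, 57.6% G and C), that of Itgb1 chr8:128685404-128685653 (plus strand, 68.0%), and that of Itgb5 chr16:33829415-33829664 (plus strand, 65.2%).
Itga1: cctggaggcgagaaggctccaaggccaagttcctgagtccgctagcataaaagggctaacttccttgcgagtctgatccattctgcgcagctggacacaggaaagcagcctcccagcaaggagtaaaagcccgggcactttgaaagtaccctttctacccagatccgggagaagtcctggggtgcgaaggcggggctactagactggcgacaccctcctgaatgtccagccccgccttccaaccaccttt
Itgb1: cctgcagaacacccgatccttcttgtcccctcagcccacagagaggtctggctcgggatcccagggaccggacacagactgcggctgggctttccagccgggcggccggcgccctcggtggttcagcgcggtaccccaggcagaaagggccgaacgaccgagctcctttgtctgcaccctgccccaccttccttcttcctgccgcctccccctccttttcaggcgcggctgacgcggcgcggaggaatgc
Itgb5: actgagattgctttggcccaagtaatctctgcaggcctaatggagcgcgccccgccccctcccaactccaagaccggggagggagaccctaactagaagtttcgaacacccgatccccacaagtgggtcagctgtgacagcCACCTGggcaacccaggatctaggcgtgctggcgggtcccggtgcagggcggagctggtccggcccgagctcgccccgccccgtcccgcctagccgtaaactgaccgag

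In the window from 250 bases before to 50 after a start, 6 of the 25 members with a window held CACCTG on either strand, namely Actn4, Itga3, Itga9, Itgb5, Itgb6 and Itgb8. By window this was 6 of 28, or 21.4%, against 20.2% of 32851 windows of the same length over all genes. The Itgb5 box starts at position -109, counted from the start site with upstream bases negative. None of the 6 passed the threshold, and a match is a run of letters, not a shown binding site.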

How the data were processed

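RNA of 6 cultures was read on Affymetrix mouse arrays, 1 per culture, per the labels' protocols. The deposited table holds log2 signals per probe set; the steps by which the authors summarised and normalized them are not given in the sources used here. Their log base was read from the values. Arrays were quantile normalized because their interquartile ranges (4.22 to 4.40) differed, and 64 control probe sets were left out. Of 45037 probe sets 34945 have 1 gene symbol in the platform annotation, 34741 of them matched by gene number to RefSeq symbols (GRCm38.p6). Depth does not apply to arrays; their number limits the precision.

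The groups were compared with limma 3.58.1 in R 4.3.3 (lmFit and eBayes, two-sided, no covariate), with Benjamini-Hochberg adjustment over all probe sets at 0.05. The script was tested on simulated data. The members and the 3 lists were chosen with earlier results of these data known, as was the use of a bacterial trp control as background gauge. Values in each culture are given for members past the threshold, members whose groups do not overlap and 9 measured members fixed by name; list genes are named if called, otherwise up to 3 with the largest change among those that do not overlap. The alternatives were the deposited values, median centring, no dimmest 40%, a robust variance trend, averaging all probe sets of a gene, the culture letter as a replicate block, a term for or removal of the arrays that stand apart, and each array left out.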

Additional observations from a re-analysis of the deposited data

How the results depend on the processing

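Over 14 alternatives, or 13 for the 7 members not measured when the dimmest 40% were left out, 20 of 36 gene results (the 35 members and Fermt2) kept their sign, and 16 changed it in 41 cases, all with reported changes of at most 0.29 and none with a call in either setting. The number of members called was 1 in the reported setting and became 4 when the dimmest 40% were left out and 4 under the variance trend, 3 with the 2-level term, 0 without both arrays that stand apart and 0 with the replicate block; without 1 array it ranged from 0 to 1. The 88 list genes gave 1 call, then 5 (of 79 measured there), 6, 6, 0 and 0 in the same order, where 3.72%, 2.72%, 2.64%, 0.319% and 0% of all genes were called, 0 with the mean of probe sets, and 0 to 1 without 1 array. With the mean of probe sets 1.47% of all genes were called, and without 1 array 0.0879% to 1.02%. Leaving out probe sets or arrays changes the number tested or the residual spread by its construction; for the rest the cause was not tested. The median change of the members stayed within -0.12 to 0.12, and that of all genes moved to -0.07 after centring. For scale, the members' median level had a pooled SD of 0.23 between cultures of a group, a spread of levels and not of changes.

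Signs changed as follows. As deposited, Itga2b read -0.032 and Parva -0.054; centred on array medians, Flna read -0.012, Itga2b -0.10, Parva -0.12 and Vcl -0.023. With the mean of probe sets Itga4 read -0.16, Itga5 0.24, Itgae 0.18, Itgav 0.32, Tln1 0.30 and Zyx -0.29. Without both arrays that stand apart Itga2b read -0.039, Itgax -0.048, Parva -0.13 and Tln1 0.20. Without 1 array the ranges were -0.069 to 0.029 (Actn4), -0.12 to 0.46 (Flna), -0.014 to 0.40 (Itga10), -0.32 to 0.086 (Itga2), -0.044 to 0.048 (Itga2b), -0.53 to 0.060 (Itga5), -0.45 to 0.073 (Itgae), -0.28 to 0.20 (Itgav), -0.20 to 0.62 (Itgb4), -0.87 to 0.80 (Itgb7), -0.086 to 0.092 (Parva), -0.24 to 0.20 (Tln1) and -0.018 to 0.36 (Zyx).

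With the culture letter as a replicate block, 0 genes passed, and 6 members had an unadjusted p under 0.05 in limma. In that fit Itga1 had an adjusted p of 0.243 and Fermt2 of 0.303. Same-letter arrays had deviations whose correlations were -0.58, -0.67 and 0.43, so the letters are not shown to pair the cultures, and the block leaves 2 of 4 residual degrees of freedom. Dim signals limit 7 members whose means both lie under the gauge, and Tln2, whose fold is a lower bound.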
